A study of Homo sapiens with 4 samples.

Results

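Chromosomes 16 and 17 were examined in windows of 100 kb for macroH2A1 in IMR90 human fetal lung fibroblasts. They were chosen by their measured coverage. Enriched segments of both replicates covered chromosome 16 the least and chromosome 17 the most of the 22 autosomes, so the difference between them is given as a description with no test. A window was kept when at least 50% of its bases lay in blocks, the assayed stretches of the deposited segmentation, of both ChIP replicates. This left 769 of 904 windows of chromosome 16 and 769 of 812 of chromosome 17, or 1538 of the 26524 windows kept on all autosomes. Of the 135 windows left out on chromosome 16, 111 held no assayed base, and of the 43 on chromosome 17, 29 held none. On chromosome 16 the kept window nearest the limit (chr16:18600001-18700000) was assayed over 51.4% of its bases, with log2 ratios of -0.14 and -0.22 in replicates 1 and 2. The nearest window left out (chr16:8600001-8700000) was assayed over 49.97% and stood at 0.14 and 0.44. On chromosome 17 the nearest kept window (chr17:62400001-62500000, 50.1% assayed) stood at -0.70 and -0.90, and the nearest left out (chr17:79700001-79800000, 47.5%) at -0.80 and -0.52.

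The series held 4 samples, 2 macroH2A1 ChIP libraries and 2 inputs, all from IMR90 cultures in medium with serum for which the labels name no treatment. Chromatin was crosslinked with formaldehyde and sonicated, and the ChIP samples alone were precipitated with a commercial antibody against macroH2A1. The values are the authors' log2 ratio of ChIP over input for each segment of the hg19 genome, which is the one way in which the inputs were used here. Read depth is unknown from these files, so the error of each value is the spread between the 2 ChIP replicates, and no test between groups of samples could be made. The labels do not say whether the replicates were separate cultures, so that spread may be technical. Where a gene is given as covered or uncovered, this says where macroH2A1 was enriched over input and nothing of the gene's expression, which was not measured, so the labelled cell type could not be checked against its markers.

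MacroH2A1 is an H2A variant in which a globular macro domain follows the histone fold. It is known from the inactive X chromosome and from long domains over transcriptionally quiet chromatin on autosomes, while the bodies of highly transcribed genes are usually poor in it. Chromosomes 16 and 17 are both GC-rich and gene-rich. Chromosome 16 carries a large heterochromatic block beside its centromere and many segmental duplications. Chromosome 17 carries several tandem gene families, among them the type I keratins, the keratin-associated proteins, the HOXB genes and the chemokine genes of 17q12.

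Promoters of genes on these chromosomes span the whole range of the measurement, and those shown are of the listed genes with the lowest log2 ratio at the start site on each chromosome and, on chromosome 17, also the highest. Each runs 5′ to 3′ from 250 bases before the start site to 50 bases after its first position, 300 bases in all, read from GRCh37, the same build as hg19. CG dinucleotides, which are counted further below, are in capitals. PSMB10 (chr16:67970704-67971003, minus strand), a subunit of the immunoproteasome, held 7 CG dinucleotides and lay at -2.98 and -2.40 in replicates 1 and 2. PMP22 (chr17:15168594-15168893, minus strand), which encodes a tetraspan membrane protein of peripheral myelin, held 2 and lay at 2.32 and 2.67. PSMD3 (chr17:38136810-38137109, plus strand), a subunit of the regulatory particle of the proteasome, held 19 and lay at -2.79 and -3.25.
PSMB10: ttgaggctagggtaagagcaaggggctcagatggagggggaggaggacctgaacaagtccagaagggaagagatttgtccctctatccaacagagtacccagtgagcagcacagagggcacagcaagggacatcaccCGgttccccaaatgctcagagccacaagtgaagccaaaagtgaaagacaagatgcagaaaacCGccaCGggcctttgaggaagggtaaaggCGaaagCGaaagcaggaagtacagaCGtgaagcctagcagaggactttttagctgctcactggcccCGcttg
PMP22: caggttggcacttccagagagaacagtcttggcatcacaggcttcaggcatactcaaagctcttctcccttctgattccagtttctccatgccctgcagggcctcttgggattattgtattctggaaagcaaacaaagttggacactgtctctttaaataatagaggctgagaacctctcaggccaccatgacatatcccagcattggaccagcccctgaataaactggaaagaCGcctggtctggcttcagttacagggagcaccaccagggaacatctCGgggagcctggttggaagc
PSMD3: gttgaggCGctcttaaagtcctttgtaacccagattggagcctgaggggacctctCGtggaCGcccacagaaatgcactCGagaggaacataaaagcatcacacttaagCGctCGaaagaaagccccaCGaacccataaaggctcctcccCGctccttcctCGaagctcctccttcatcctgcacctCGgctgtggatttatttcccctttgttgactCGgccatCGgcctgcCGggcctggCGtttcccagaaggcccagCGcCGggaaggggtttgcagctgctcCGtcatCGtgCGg

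Over the kept windows, enriched segments covered 24.2% and 25.4% of chromosome 16 in replicates 1 and 2, and 36.4% and 38.7% of chromosome 17. A segment counted as enriched at a log2 ratio over 0 together with a −log10 p of 2 or more. Bases enriched in both replicates, the covered share from here on, made up 20.8% of chromosome 16 (15.5 of 74.7 Mb) and 32.7% of chromosome 17 (24.7 of 75.4 Mb), against 27.6% of all autosomal windows. Chromosome 16 ranked 21 of 22 in each replicate, as chromosome 19 lay lower in replicate 1 (23.4%) and chromosome 7 in replicate 2 (24.5%). Chromosome 19 also had a covered share of 20.8%, so the lowest place is shared to this precision. Chromosome 17 ranked 3 of 22 in replicate 1 and 1 in replicate 2. Windows covered over at least 50% of their assayed bases numbered 145 on chromosome 16 (18.9%) and 234 on chromosome 17 (30.4%), beside 25.9% of all kept autosomal windows. Windows with no covered base numbered 446 (58.0%) on chromosome 16 and 289 (37.6%) on chromosome 17, and made up 52.8% of autosomal windows. Because these counts come from the contrast that chose the chromosomes, nothing is read from their distance to the autosomes.

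The mean log2 ratio separated the chromosomes far less than the covered share did. Chromosome 16 had a length-weighted mean of -0.59 in replicate 1 and -0.48 in replicate 2 (-0.54 ± 0.08, SD, n = 2). Chromosome 17 stood at -0.47 and -0.38 (-0.43 ± 0.07). The difference, chromosome 17 minus chromosome 16, was 0.12 in replicate 1 and 0.10 in replicate 2. All autosomal windows together stood at -0.32 and -0.34, so the most covered autosome had a lower mean ratio than the autosomes as a whole, and ranked 19 of 22 by that mean. Chromosome 16 ranked 21. The median window showed the same order, at -0.59 on chromosome 16, -0.48 on chromosome 17 and -0.44 on all autosomes.

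Chromosome 17 held more sequence at both ends of the range and less in the middle. Bases with a log2 ratio of 0 or more made up 41.5% and 42.4% of chromosome 17 in the 2 replicates and 27.4% and 29.5% of chromosome 16. Bases below -1 made up 32.5% and 31.1% of chromosome 17 and 27.3% and 26.2% of chromosome 16. The middle, from -1 to below 0, held 26.0% and 26.5% of chromosome 17 but 45.2% and 44.3% of chromosome 16, against 42.8% and 44.5% of the autosomes. In both replicates chromosome 17 had the smallest middle share of the 22 autosomes, and it ranked 3 by the share below -1. Small middle shares were not particular to it. Chromosome 19 held 30.9% and 30.9% there and chromosome 22 held 31.2% and 27.6%, and they ranked 1 and 2 by the share below -1. Chromosome 16 ranked 9 and 11 by its middle share and 4 by the share below -1. The quartiles of the windows show the same spread. The lower quartile was -0.90 on chromosome 16 and -1.08 on chromosome 17, and the upper quartile -0.10 and 0.25. The 5th percentile was -1.91 on each, and the 95th 0.85 and 1.00.

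**Figure D1:**
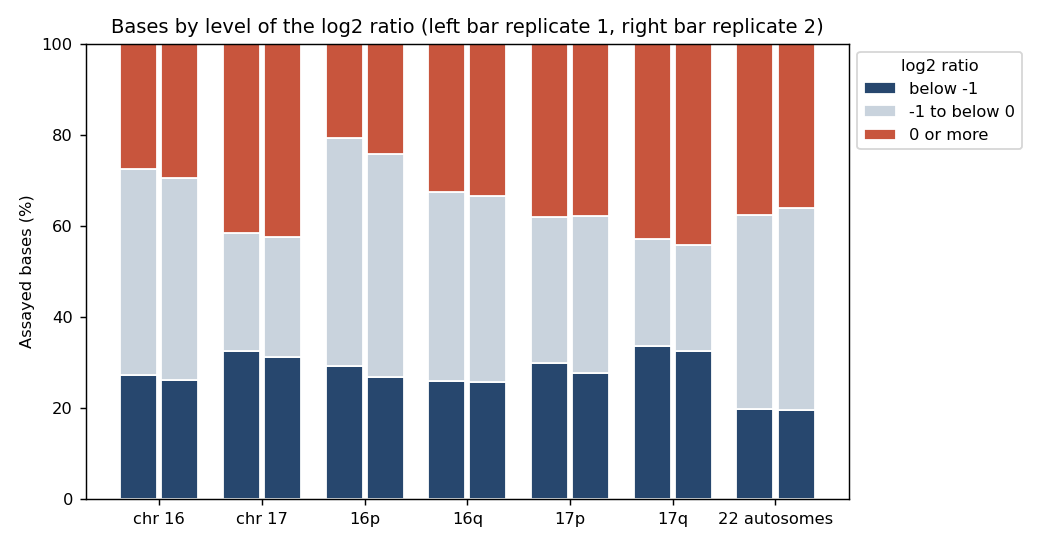
Share of assayed bases (%) with a log2 ratio below -1, from -1 to below 0, and of 0 or more, for chromosomes 16 and 17, their arms and the 22 autosomes, with 1 bar per ChIP replicate. The middle class holds 26.0% and 26.5% of chromosome 17 against 45.2% and 44.3% of chromosome 16.

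Each chromosome was covered more on its long arm, and the short arm of chromosome 16 was the least covered of the 4 arms. The arms were split at the longest run of unknown bases in the assembly (chr16:35285802-46385801 and chr17:22263007-25263006). On 16p (331 windows) the covered share was 16.03%, with 18.02% and 20.2% in single replicates and a mean log2 ratio of -0.68 ± 0.12 (SD, n = 2). On 16q (438 windows) it was 24.3%, with 28.8% and 29.3% in single replicates and a mean of -0.43 ± 0.05. The arms of chromosome 16 did not overlap between replicates in either measure. Their difference in covered share was 8.26 percentage points, but 3.73 when segments were taken whole with the gaps between their blocks. On 17p (219 windows) the covered share was 26.9%, with 33.3% and 32.4% in single replicates, and on 17q (550 windows) 35.0%, with 37.6% and 41.2%. The mean log2 ratio was -0.52 and -0.41 on 17p and -0.46 and -0.37 on 17q in replicates 1 and 2, so it was higher on 17q within each library. The difference in covered share between these arms was 8.10 percentage points by both replicates but 4.33 in replicate 1 alone. Windows covered over at least 50% numbered 47 on 16p (14.2%), 98 on 16q (22.4%), 57 on 17p (26.0%) and 177 on 17q (32.2%). The middle class held 50.1% and 48.9% of 16p, the largest share of the 4 arms, and 23.6% and 23.4% of 17q, the smallest.

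Along the chromosomes, coverage changed by stretches of several megabases. On chromosome 16 the covered share of 10-Mb stretches with over 30 windows ran from 4.65% between 30 and 40 Mb, to 33.3% between 80 and 90 Mb. The first 10 Mb of chromosome 16, with 21.6 protein-coding start sites per Mb, was covered to 12.6% at a mean log2 ratio of -0.92. The first 10 Mb of chromosome 17, with 24.8 start sites per Mb, was covered to 22.3% at -0.69. Chromosome 17 stretches with over 30 windows ran from 21.0% between 50 and 60 Mb to 51.3% between 60 and 70 Mb. With each 10-Mb stretch left out in turn, chromosome 16 was covered to between 18.9% and 21.996%, and chromosome 17 to between 29.9% and 34.5%, which describes how far any 1 stretch moves the share that chose the chromosomes.

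**Figure D2:**
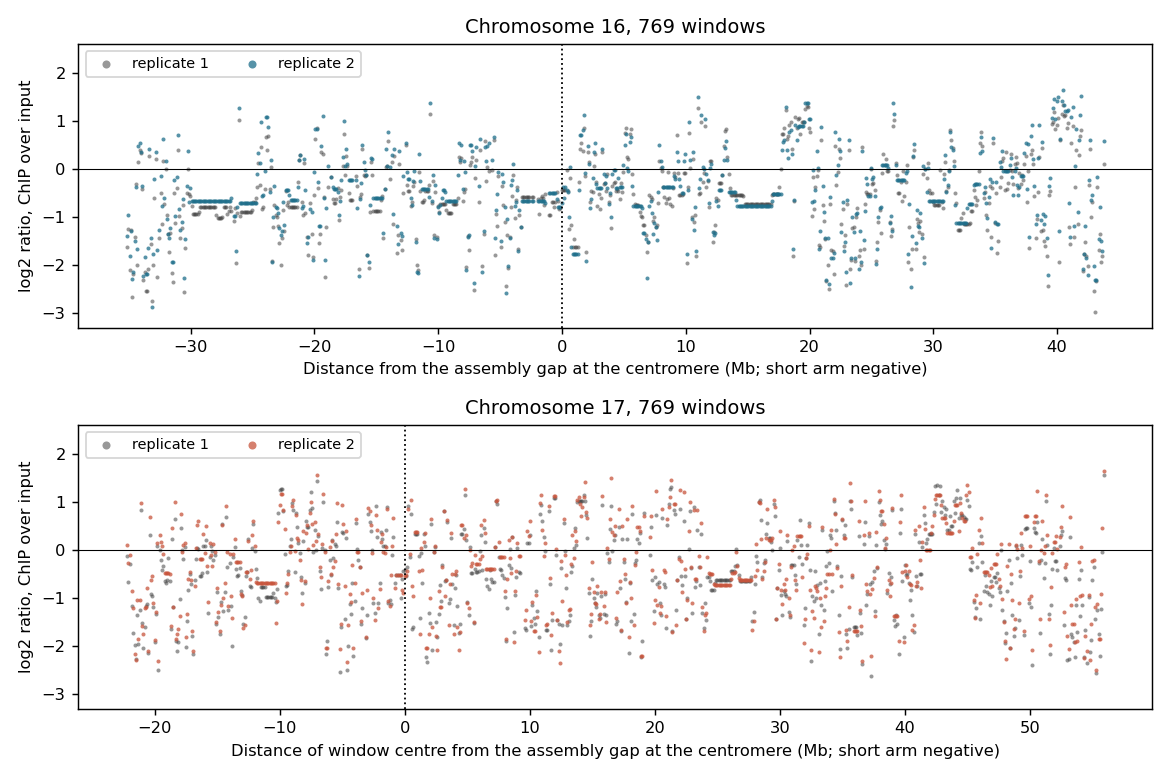
Log2 ratio of ChIP over input in each kept 100-kb window of chromosomes 16 and 17 (769 windows each), by distance in Mb from the assembly gap at the centromere, with the short arm negative and 1 point per replicate. Flat rows of points, longer on chromosome 16, are windows within 1 long segment, and the middle of the windows runs from -0.90 to -0.10 on chromosome 16 (25th to 75th percentile) and from -1.08 to 0.25 on chromosome 17.

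The chromosomes differed most between genes. Inside protein-coding genes, over all assayed bases, the covered share was 14.1% on chromosome 16 and 17.7% on chromosome 17, against 17.3% on the autosomes. The single replicates gave 16.9% and 18.2% on chromosome 16, and 19.9% and 23.6% on chromosome 17. The mean log2 ratio inside genes was -0.98 and -0.84 on chromosome 16 in replicates 1 and 2 and -0.97 and -0.85 on chromosome 17, so the order of the chromosomes was opposite in the replicates. Outside genes the covered share was 28.0% on chromosome 16 and 53.2% on chromosome 17, against 36.7% on the autosomes. There the single replicates gave 32.2% and 33.2% on chromosome 16, and 59.0% and 59.2% on chromosome 17, first of the 22 autosomes in both. These bases are part of the coverage that chose the chromosomes, so nothing is read from that rank. Mean log2 ratios outside genes were -0.14 ± 0.05 and 0.24 ± 0.04. On 17q the covered share outside genes reached 57.2%, on 17p 43.8%, on 16q 32.7% and on 16p 20.7%.

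Gaps between protein-coding genes were next taken by length. The chromosomes lay furthest apart in gaps of 100 to 500 kb. In gaps of 100 to 500 kb the covered share was 23.4% on chromosome 16 (42 gaps, 9.59 Mb) and 54.8% on chromosome 17 (49 gaps, 9.49 Mb), against 48.6% on the autosomes. The replicates stood at 27.8% and 28.4%, and at 64.8% and 60.5%. In gaps of 20 to 100 kb the shares were 45.5% and 64.6%, and in gaps under 20 kb 34.9% and 43.2%. Gaps of 500 kb or more were covered to 23.4% on chromosome 16 (20 gaps, 18.2 Mb) and to 41.1% on chromosome 17 (9 gaps, 8.25 Mb). All autosomal gaps of this length were covered to 26.5%.

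**Figure D3:**
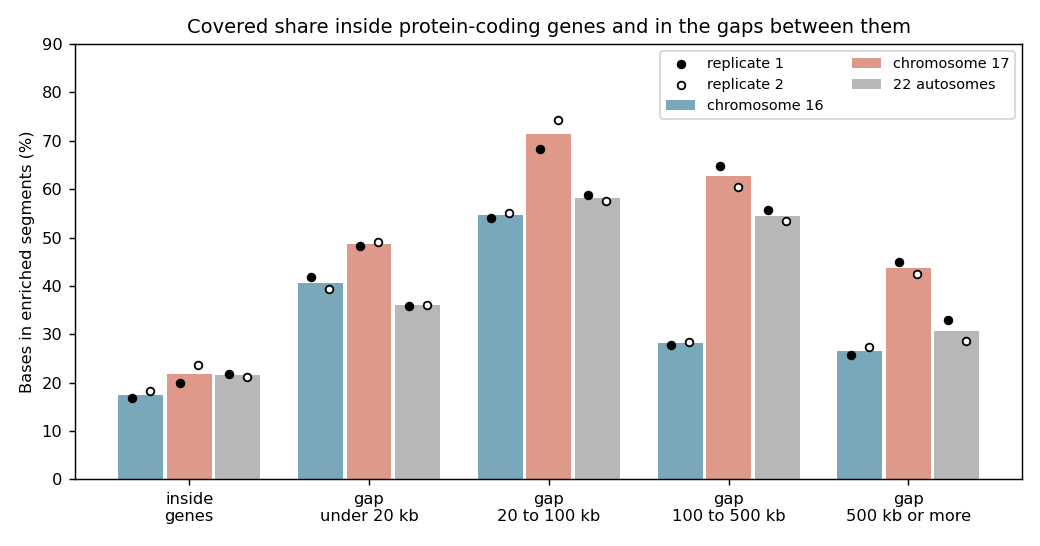
Percent of assayed bases in enriched segments inside protein-coding genes and in gaps between them by gap length, for chromosomes 16 and 17 and the 22 autosomes. Bars are the mean of the replicates, and filled and open points are replicates 1 and 2. In gaps of 100 to 500 kb chromosome 16 stands at 27.8% and 28.4% and chromosome 17 at 64.8% and 60.5%.

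Single long gaps ran from no covered base to nearly whole coverage. Among the 18 gaps of 500 kb or more on chromosome 16 with over 50% of their length assayed, 3 were covered over at least 50% and 7 under 5%. Among the 8 on chromosome 17, 4 were covered over at least 50% and 3 under 5%. Single gaps were not counted on the other autosomes, so nothing is read from these counts. On chromosome 16 the gap between CDH11 and CDH5, which encode a mesenchymal and an endothelial cadherin, was covered to 99.5% at 1.03 and 1.01 in the replicates. The gap between FOXL1 and C16orf95 was covered to 99.3% at 1.14 and 1.31. Between IRF8, a transcription factor of myeloid and B cells, and FOXF1, a transcription factor of lung mesenchyme, the gap was covered to 90.2% at 0.73 and 1.12. By contrast the 2913-kb gap between GOT2 and CDH8 was covered to 9.90% (-0.37 and -0.49), and the 824-kb gap between RBFOX1 and TMEM114 to 0 (-0.87 and -0.67). The 1941-kb gap of chromosome 17 between the potassium channel gene KCNJ2 and SOX9, a transcription factor of cartilage, was covered to 99.9% at 0.76 and 0.62. The gap between MAP2K4 and MYOCD, a coactivator of smooth muscle genes, was covered to 96.4% at 1.02 and 0.84. The 1663-kb gap between CA10 and KIF2B was at 0, at -0.51 and -0.60.

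The difference in covered share varied between classes of GC content and gene density. Kept windows had a GC content of 44.8% on chromosome 16 and 45.5% on chromosome 17, against 40.97% on the autosomes, and 11.1 and 15.5 protein-coding start sites per Mb against 7.27. In windows of 38 to 41% GC the covered share was 10.8% on chromosome 16 (101 windows) and 36.7% on chromosome 17 (107 windows), the widest gap of the 6 GC classes. In windows of 47 to 50% GC it was 38.3% and 36.4% (114 and 116 windows), the only class in which chromosome 16 was not lower. Windows with no start site were covered to 17.1% on chromosome 16 (425 windows) and to 30.0% on chromosome 17 (294 windows), and windows with 1 start site to 26.1% and 40.4%. With 2 to 3 start sites the shares were 27.8% and 29.7%, the closest of the 5 density classes. When classes of GC and start sites together were given the same weights on both chromosomes (24 classes, 1523 windows), the covered shares were 21.9% and 31.8%, a difference of 9.89 percentage points in place of 11.9. At the same weights the difference in mean log2 ratio was 0.13 in place of 0.11, so it did not shrink as the covered share did. Since the covered share chose the chromosomes, these values are a description. The part of GC content and gene density in the difference was not tested. Within each chromosome the mean log2 ratio was lower in the classes with many start sites. It was -0.43 on chromosome 16 and -0.33 on chromosome 17 with no start site. With 4 to 6 it was -0.98 and -0.81, and with 7 or more -1.40 and -0.76 (16 and 23 windows). Rank correlations over single windows were weak, and 55.3% and 38.2% of windows tie at no start site. Across windows, which share libraries and segments, Spearman's rho with GC was -0.05 on chromosome 16 and -0.10 on chromosome 17, and with the number of start sites -0.18 and -0.17.

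Shared domains, stretches enriched in both replicates with pieces within 1 kb joined, were longer and more frequent on chromosome 17 than on chromosome 16. Chromosome 16 held 447 domains with a median of 14.1 kb, and chromosome 17 held 498 with a median of 21.8 kb. Autosomal domains had a median of 28.4 kb. Domains of 100 kb or more numbered 38 on chromosome 16 and 61 on chromosome 17, or 0.50 and 0.81 per Mb, against 0.83 on the autosomes. They covered 9.57% and 17.1% of assayed bases, against 16.9% on the autosomes, so chromosome 17 lay near the autosomes in long domains. Shorter domains covered 11.2% and 15.6%, against 10.7% on the autosomes. On 16p the median domain was 6.46 kb long and the longest 175 kb. These lengths depend on how finely the authors' method cut each replicate, with 1658 and 859 segments on chromosome 16, and 1959 and 1080 on chromosome 17, in replicates 1 and 2.

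The longest domains of both chromosomes lay on the long arms, mostly outside genes. On chromosome 16 they were chr16:64114148-64971722 (858 kb; 0.86 and 0.66 in replicates 1 and 2) and chr16:65729352-66299677 (570 kb; 1.13 and 1.16), both without a protein-coding gene and lying on either side of CDH11. The third was chr16:86965542-87327548 (362 kb; 0.97 and 1.19), which reaches into C16orf95. The first pair of chromosome 17, chr17:68546873-69348441 (802 kb; 0.65 and 0.50) and chr17:69606907-70115994 (509 kb; 0.76 and 0.73), both lay in the gap before SOX9 and held no protein-coding gene. The third, chr17:63055546-63522892 (467 kb; 0.77 and 0.99), held RGS9, a regulator of G protein signalling in photoreceptors and striatum. RGS9 itself was covered to 100% at 1.00 and 1.23.

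Runs of windows brought out long stretches of one kind. The longest run of windows covered over at least 50% on chromosome 17 was 3.1 Mb, chr17:67300001-70400000, from ABCA5 past SOX9, at 0.83 and 0.76. The second was 1.3 Mb over the keratin genes, chr17:38600001-39900000, which overlapped 70 protein-coding genes and stood at 0.66 and 0.73. The third (chr17:54200001-54900000, 0.42 and 0.52) held NOG, a secreted inhibitor of bone morphogenetic proteins, and part of ANKFN1. On chromosome 16 the longest covered run was 1.3 Mb, chr16:65200001-66500000, ending at CDH5 and BEAN1, at 1.01 in each replicate. Next came chr16:64100001-65000000 (0.79 and 0.59) and chr16:85800001-86500000 with IRF8 (0.78 and 1.08). IRF8 was covered to 100% at 1.09 and 1.06.

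The longest runs without a covered base stood in the middle class on both chromosomes and not in the lowest. On chromosome 16 they were chr16:59800001-64100000 (4.3 Mb, 43 windows, GC content 36.5%), which held the neuronal cadherin gene CDH8 alone and stood at -0.60 and -0.68. RBFOX1, a neuronal splicing factor gene, filled most of chr16:5100001-8600000 (3.5 Mb) at -0.85 and -0.66. WWOX and MAF lay in chr16:78000001-80100000 (2.1 Mb) at -0.85 and -0.77. The longest of chromosome 17 was chr17:49300001-53500000 (4.2 Mb, 9 genes, GC content 37.9%) at -0.63 and -0.63. The second, chr17:10200001-12000000 (1.8 Mb), held the skeletal myosin heavy chain genes and DNAH9, a ciliary dynein gene, at -0.83 and -0.68. The third was chr17:8700001-9700000 with NTN1, the axon guidance gene netrin 1, at -0.75 and -0.70.

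The lowest windows all overlapped protein-coding genes, whereas 6 of the 10 highest overlapped none. On chromosome 16 the lowest was chr16:2100001-2200000, which stood at -2.76 and -2.87 and held TSC2, a brake on growth signalling (-2.97 and -3.01), and PKD1 (-3.29 and -3.41), of which partial copies exist elsewhere on the chromosome. Window values of the next lowest follow. They were chr16:89400001-89500000 with the chromatin regulator gene ANKRD11 (-2.98 and -2.31) and chr16:30700001-30800000 with the chromatin remodeller gene SRCAP (-2.44 and -2.58). The remaining pair were chr16:500001-600000 with RAB11FIP3 (-2.66 and -2.30) and chr16:67900001-68000000, in which PSMB10 lies (-2.50 and -2.40). The lowest of chromosome 17 were chr17:80500001-80600000 with FOXK2 (-2.56 and -2.49) and chr17:17600001-17700000 with RAI1 (-2.50 and -2.32). These were followed by chr17:62500001-62600000 with the RNA helicase gene DDX5 (-2.61 and -2.19), chr17:2500001-2600000 with PAFAH1B1 (-2.49 and -2.30) and chr17:61800001-61900000 with DDX42 (-2.36 and -2.30). No window of these 10 held a covered base.

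Among the 5 highest windows of chromosome 16, 4 held no protein-coding gene. They were chr16:86800001-86900000 (1.32 and 1.64), chr16:66100001-66200000 (1.30 and 1.37), chr16:66200001-66300000 (1.30 and 1.37) and chr16:86100001-86200000 (1.18 and 1.45). The fifth, chr16:57300001-57400000, held the chemokine gene CCL22 and part of PLLP, and stood at 1.27 and 1.50. The highest of chromosome 17 was its last window, chr17:81100001-81195210, which ends with the chromosome and held assayed bases equal to 75.4% of a full window, at 1.56 and 1.64. It was followed by chr17:15200001-15300000 with TEKT3, a gene of sperm and cilia, at 1.43 and 1.57. The window chr17:46500001-46600000, with part of the T cell adaptor gene SKAP1, stood at 1.31 and 1.47. Next were chr17:67800001-67900000 (1.35 and 1.15) and chr17:68000001-68100000 (1.34 and 1.15), the latter with KCNJ16, a potassium channel gene covered to 100%.

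Neighbouring windows could stand at opposite ends of the range, and steps were larger on chromosome 17. The median absolute step in log2 ratio between adjacent kept windows was 0.27 on chromosome 16 (752 pairs) and 0.47 on chromosome 17 (760 pairs). Steps had the same sign in both replicates in 74.5% and 82.8% of pairs. The largest on chromosome 16 fell at position 88400000, from 0.80 and 1.51 in the window before to -2.13 and -2.09 in the window with ZNF469 (covered to 0 itself, at -2.72 and -2.73). Another rose at 57300000, from -1.81 and -1.70 over RSPRY1 and ARL2BP to 1.27 and 1.50 over CCL22. The third fell at 86500000, from 1.06 and 1.50 to -1.93 and -1.28 in the window with FOXF1. The largest step of chromosome 17 fell at 46600000, from 1.31 and 1.47 over SKAP1 to -1.68 and -1.69 over the HOXB cluster.

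Gene groups were read as the mean log2 ratio and the covered share over each gene's annotated span. Of 861 protein-coding genes annotated on chromosome 16, 826 were assayed over at least 50% of their span, and of these 138 (16.7%) were covered over at least 50%. Of 1189 on chromosome 17, 1164 were assayed and 258 (22.2%) were covered. The share over all 18764 measured autosomal genes was 17.4%, so chromosome 16 lay near the background. By arm the shares were 13.996% on 16p, 19.8% on 16q, 14.3% on 17p and 25.4% on 17q. Genes with no covered base made up 73.8% on chromosome 16, 69.5% on chromosome 17 and 71.1% on the autosomes. The median gene stood at -1.41 on chromosome 16, -1.19 on chromosome 17 and -0.90 on the autosomes. The lists below hold 221 genes, of which 220 were measured. Members of a tandem cluster often lie in 1 segment and then share its value, so they are not independent.

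The tandem families of chromosome 17 held most of its covered listed genes. Of 27 type I keratin genes, which encode intermediate filaments of epithelia and hair, 26 were covered to 100%, with a list median of 1.02 in replicate 1 and 0.91 in replicate 2. KRT38, a hair keratin, was the highest at 1.32 and 1.42, values it shared with KRT32 and KRT37. KRT10, a keratin of the upper epidermis, was the exception, with 0 covered at -1.22 and -1.45. All 28 keratin-associated protein genes, which encode matrix proteins of the hair shaft, were covered to 100%, from KRTAP2-1 at 1.03 and 1.12 to KRTAP4-2 at 1.03 and 0.38. Their near-identical copies make single members uncertain. The 5 genes of the growth hormone cluster were covered to 100%, with CSH2 at 0.90 and 1.01 and GH1 at 0.21 and 1.01, and they too are near-identical copies.

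Chemokine genes of chromosome 17 split by position. CCL2, CCL7 and CCL11, which attract monocytes and eosinophils, stood at 1.36 and 1.45 with 100% covered, and CCL8, CCL13 and CCL1 at 0.68 and 0.79 with 100%. The other 8 of the 14 had no base covered in both replicates, and in replicate 2 alone 10 of the 14 were covered over at least 50%. CCL5 was the lowest, at -0.65 and -0.55. CCL14, CCL15 and CCL23 were covered in replicate 2 alone, at -0.48 and 0.25, as was CCL16 at -0.28 and 0.25. The 3 chemokine genes of chromosome 16 were covered to 100%. CX3CL1, a membrane-bound chemokine, and CCL22 stood at 1.14 and 1.50, and CCL17 at 0.57 and 0.52.

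Developmental transcription factor genes differed between neighbours. In the HOXB cluster, which patterns the body axis, 4 of 10 genes were covered over at least 50% and 6 had no base covered in both replicates. HOXB1, at the SKAP1 end, was covered to 100% at 1.05 and 1.51, while HOXB4 stood at -2.96 and -3.02. HOXB9 (1.18 and 0.97) and HOXB13 (0.75 and 0.97) were covered to 100%, and HOXB7 to 68.3% (0.29 and 0.25). The annotated span of HOXB7 holds HOXB8 and HOXB9, so its covered bases include those of HOXB9. In 5-kb windows at the start sites 3 of the 10 genes were covered. TBX4, a T-box factor of hindlimb and lung, was covered to 100% at 1.06 and 1.20, and its neighbour TBX2 to 0 at -3.57 and -2.96. On chromosome 16 all 3 FOX genes of 16q24 were at 0, with FOXF1 at -2.93 and -1.73 and FOXC2 at -1.56 and -1.06, between the covered gaps described above. None of the 3 IRX homeobox genes was covered in both replicates. IRX3 stood at 0.03 and 0.16 and was covered to 100% in replicate 2 alone, and IRX6 at -0.50 and -0.38. The replicates differed at SOX9, which stood at -2.95 in replicate 1 and at 0.61 in replicate 2, where it was covered to 100%. KCNJ2 differed likewise, at -0.93 and 0.67, whereas KCNJ16 stood at 1.34 and 1.15.

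**Figure D4:**
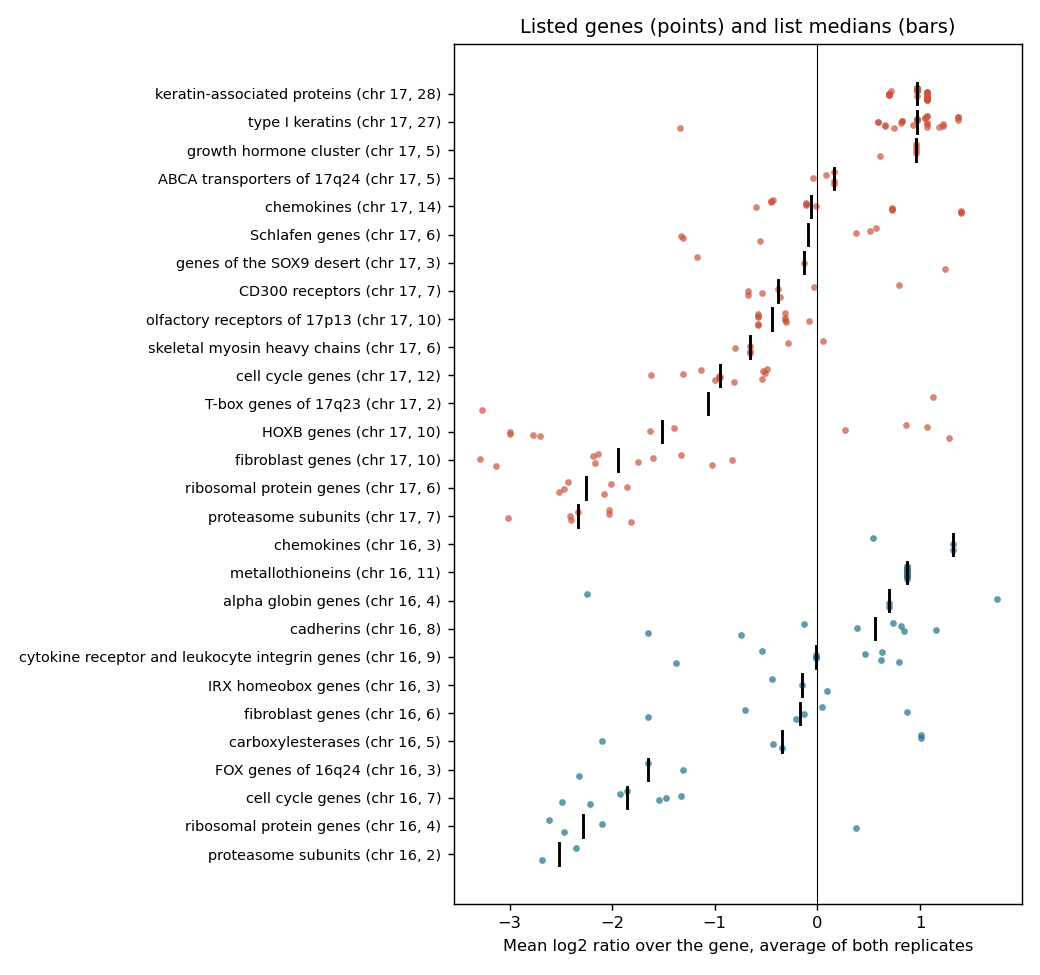
Mean log2 ratio over each listed gene, averaged over both replicates, by list, with the chromosome and the number of measured genes in brackets. Points are genes and black bars list medians, chromosome 17 in red and chromosome 16 in blue. Keratin genes apart from KRT10, and growth hormone, metallothionein and chromosome 16 chemokine genes, lie above 0, and proteasome and ribosomal protein genes apart from RPL3L lie below -1.

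On chromosome 16 the metallothioneins and 3 of the alpha globin genes were covered, and cadherins were split. All 11 metallothionein genes, which encode small metal-binding proteins, lay in 1 segment of each replicate at 0.76 and 0.99 with 100% covered, so they form 1 observation. Of 4 measured alpha globin genes 3 were covered to 100%, with HBZ and HBM at 0.60 and 0.81 and HBA1 at 1.24 and 2.26, although reads at HBA1 are uncertain because of its near-identical copy HBA2, whereas HBQ1 at the end of the cluster stood at -2.58 and -1.90. Of the 8 cadherin genes 5 were covered over at least 50%, but 3 at a −log10 p of at least 5 and 3 with a log2 ratio above 0.5. The kidney cadherin CDH16 was the highest, at 1.05 and 1.25, followed among those covered to 100% by the endothelial CDH5 (0.65 and 1.04), the epithelial CDH1 (0.76 and 0.86) and CDH15 (0.57 and 0.90). CDH11, the mesenchymal cadherin, was the lowest at -1.72 and -1.57 with 0.302% covered, although the longest covered domain of the chromosome lies beside it. CDH8 stood at -0.73 and -0.76, and CDH13 at -0.08 and -0.18.

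Further gene families were covered in part or not at all. The 10 olfactory receptor genes of 17p13 were at 0 and below 0 in both replicates, from OR1D5 at -0.12 and -0.05 to OR1A2 at -0.68 and -0.47. None of the 6 skeletal myosin heavy chain genes was covered in both replicates. MYH13 stood at 0.01 and 0.09 with 40.3% covered in replicate 1 alone, and MYH3 was the lowest at -0.93 and -0.68. Of 7 CD300 receptor genes of leukocytes 1, CD300LG, was covered (0.67 and 0.92), against 2 in replicate 2 alone, and CD300C stood at -1.06 and -0.30. Among 9 cytokine receptor and leukocyte integrin genes of chromosome 16, 3 were covered over at least 50%. IL21R was the highest at 0.56 and 1.03, IL4R the lowest at -1.78 and -0.97, and ITGAM, ITGAX and ITGAD shared 1 segment at -0.12 and 0.09. The Schlafen genes, which are induced by interferon, included 2 of 6 covered, from SLFN14 (0.69 and 0.45) to SLFN12 (-1.56 and -1.11). In replicate 2 alone 4 were covered over at least 50%, with SLFN5 at -1.34 and 0.22 in the replicates, and with a log2 ratio above 0.5 none was covered. Of 5 carboxylesterase genes CES3 and CES4A were covered to 100% (0.80 and 1.22), and CES2 stood at -2.74 and -1.46. None of the 5 ABCA transporter genes was covered in both replicates. ABCA5, ABCA6 and ABCA10 were covered to 100% in replicate 1 alone, at 0.33 and just below 0, and ABCA8 was the lowest, at -0.09 and just below 0.

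Proteasome and ribosomal protein genes had list medians below the median gene on both chromosomes, as did the fibroblast list of chromosome 17. The fibroblast list of chromosome 16 went the other way, with a median of -0.17 above the median gene of -1.41. None of 9 proteasome genes was covered over at least 50%, and all were below 0 in both replicates, from PSMD3 at -2.79 and -3.25 to PSMB6 at -2.32 and -1.32. Ribosomal protein genes had list medians of -2.28 on chromosome 16 and -2.26 on chromosome 17. RPL13 was the lowest of chromosome 16 at -2.92 and -2.31, and RPL3L, a muscle form, the exception at 0.61 and 0.15 with 12.9% covered, and 80.7% in replicate 1 alone. The 6 ribosomal protein genes of chromosome 17 ran from RPL23A at -2.61 and -2.43 to RPL19 at -1.96 and -1.75. Cell cycle genes had a median of -1.85 on chromosome 16, below the median gene of -1.41, and -0.95 on chromosome 17, above its median gene of -1.19, with no gene of the 19 covered over at least 50%. The lowest were the replication licensing gene CDT1 (-2.38 and -2.60) on chromosome 16 and CDC27 (-1.14 and -2.12), a subunit of the anaphase-promoting complex, on chromosome 17. BRIP1 was the highest of chromosome 17 at -0.40 and -0.58, and ORC6 of chromosome 16 at -0.44 and -2.21. Of the 10 fibroblast genes of chromosome 17 none was covered over at least 50%. COL1A1, a chain of type I collagen, stood at -3.34 and -2.92, FASN was the lowest at -2.97 and -3.61, and PMP22 the highest at -1.15 and -0.52 over the whole gene. PMP22 was covered to 20.8% of its span, which includes the promoter shown above, at 2.32 and 2.67. Of the 6 on chromosome 16, MT2A alone was covered over at least 50% by both replicates (2 genes in replicate 2 alone), the gelatinase gene MMP2 was covered to 14.3% at -0.31 and -0.11, and CDH11, also in the cadherin list, was the lowest.

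The genes with the most covered bases included many long genes. On chromosome 17 they were ANKFN1 (387 kb covered, 62.3% of its span), SKAP1 (297 kb, 100%), EFCAB5 (173 kb, 97.8%), RAB11FIP4 (147 kb, 100%) and SPECC1 (144 kb, 46.5%). SKAP1 stood at 0.99 and 0.94, and EFCAB5 at 0.79 and 0.77. On chromosome 16 they were ZFHX3 (246 kb covered, 22.4%), C16orf95 (210 kb, 90.0%), the gene model ENSG00000188897 (162 kb, 96.9%), the smooth muscle myosin gene MYH11 (124 kb, 80.7%) and TNRC6A (118 kb, 54.6%). MYH11 stood at 0.53 and 0.65. ZFHX3 and TNRC6A had mean log2 ratios below 0 over the whole gene, at -0.33 and -0.16, and at -0.31 and -0.18.

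Promoters poor in CG dinucleotides were covered more often than CG-dense ones, and these poor promoters differed most between the chromosomes. Of 1819 promoters assayed over all 300 bases, 384 (21.1%) lay whole in enriched segments of both replicates. With 0 to 4 CG dinucleotides the covered share was 30.2% on chromosome 16 (19 of 63) and 56.8% on chromosome 17 (92 of 162). With 5 to 14 it was 32.9% (48 of 146) and 38.9% (81 of 208). With 15 to 24 it was 15.5% and 12.3%, and with 25 or more 10.1% (38 of 375) and 11.2% (55 of 490). The median promoter of the poorest class stood at -0.28 and 0.06 on chromosome 16 and at 0.50 and 0.49 on chromosome 17. In the densest class the medians were -1.85 and -1.76 on chromosome 16 and -1.89 and -1.61 on chromosome 17. Many of the poorest promoters of chromosome 17 belong to tandem families that lie in 1 domain, so they are not independent. A CG on one strand is a CG on the other, so the count has no strand.

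**Figure D5:**
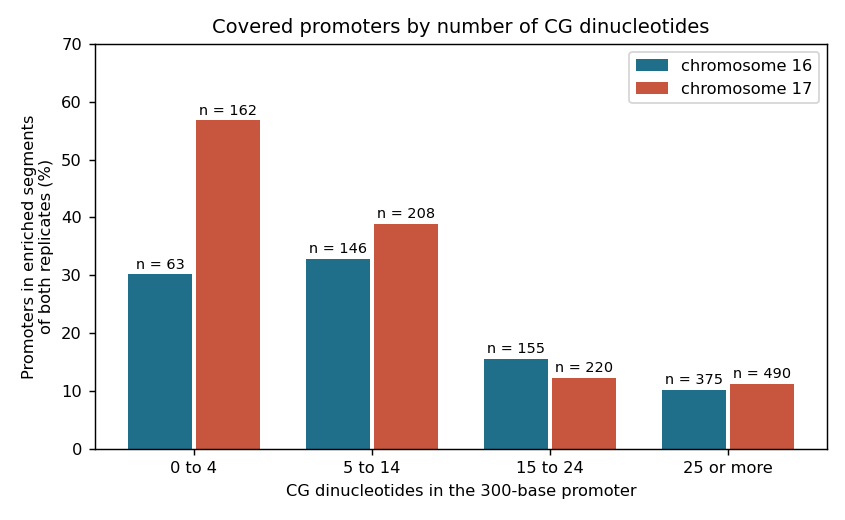
Percent of promoters lying whole in enriched segments of both replicates, by the number of CG dinucleotides in 300 bases, for chromosomes 16 and 17, with the number of promoters above each bar. The class with 0 to 4 stands at 30.2% on chromosome 16 and 56.8% on chromosome 17, and the class with 25 or more at 10.1% and 11.2%.

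The replicates agreed on most windows of both chromosomes. Across windows, which are not independent, Pearson's r between the replicates was 0.96 on chromosome 16 and 0.97 on chromosome 17. Replicate 2 lay above replicate 1 by a median of 0.13 on chromosome 16 and of 0.10 on chromosome 17, whereas over all autosomes it lay below by 0.03 (a median of -0.03). Of the windows covered over at least 50% in replicate 1 (164 on chromosome 16 and 260 on chromosome 17), 90.9% and 90.4% were so in replicate 2. Of those in replicate 2 (184 and 280), 81.0% and 83.9% were so in replicate 1. No window differed by 1 or more between the replicates, and the widest gaps were 0.79 at chr16:15900001-16000000 over MYH11 (0.31 and 1.10) and 0.90 at chr17:25800001-25900000 over KSR1 (-1.64 and -0.74). On chromosome 16, 28.7% of windows in replicate 1 and 43.7% in replicate 2 lay within 1 segment, and on chromosome 17 17.6% and 29.4% did, so neighbouring windows often repeat a value.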

How the data were processed

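MacroH2A1 ChIP and input libraries of IMR90 cells were sequenced on an Illumina instrument, per the labels' protocols, and the submitters' processing notes name CASAVA 1.7 and hg19. No source used here gives the aligner, the duplicate treatment, the segmentation program or the scaling. Per the file headers, each ChIP replicate had its own gapped segmentation, so replicates were not pooled. The authors deposited for each segment a log2 ratio of ChIP over input, whose base was inferred from the values (2 raised to it averaged 0.989 and 0.977 over autosomal bases), and a −log10 p-value. Values are therefore relative within a library, and dips inside a segment are not seen.

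Coordinates are of hg19, the same build as GRCh37, annotated with GENCODE release 44 as mapped to that build, and count from 1. Means of the log2 ratio were weighted by the bases in blocks of both replicates, with intervals intersected exactly (Python 3.11.15, numpy 2.4.6, pandas 2.3.3), tested on simulated blocks. Start sites are those of canonical transcripts. Of 1226 promoters with an entry in the RefSeq promoter table (GRCh38.p14), 1144 had the identical sequence there. The members and gene lists were chosen with earlier results of these data known. Named were, per chromosome, the 5 highest and 5 lowest windows, the 3 longest domains, the 3 longest runs without a covered base, the 3 largest steps, the 5 genes holding most covered bases, and per list the highest and lowest member and any exception. Of these, some steps and 1 promoter are not reported here. Covered runs, long gaps and other list members were named after their values were seen. No test was made, because only 1 group of 2 samples had files. Alternatives were other windows, filters, thresholds, whole segments, either replicate and single replicates.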

Additional observations from a re-analysis of the deposited data

How the results depend on the processing

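Of 92 values recomputed under other settings, 63 moved by less than the spread between replicates (counts: by less than 1.5 times) and 29 moved further. No difference changed sign, and counts have no sign to change. The difference in covered share between the chromosomes is the one that chose them, so nothing is read from its unchanged sign. No paired analysis was possible because the inputs, which share replicate numbers with the ChIP samples, enter only through the authors' ratio and no test was made. The covered share of chromosome 17 minus that of chromosome 16, 11.9 percentage points, ranged from 12.2 to 13.3 in single replicates, and was 7.75 with a log2 ratio above 0.5, 13.4 with no p, 12.96 with whole segments and 13.5 with either replicate. The same difference at equal weights of GC and gene-density classes, 9.89, was 9.71 to 10.7 in single replicates, 6.43 above 0.5, 10.98 with no p and 8.80 with whole segments. The log2 difference between the chromosomes was 0.0896 with whole segments in place of 0.11. The long minus the short arm of chromosome 16, 8.26 points, was 9.09 to 10.8 in single replicates, 6.04 at a −log10 p of 5, 7.07 above 0.5, 9.89 with no p, 3.73 with whole segments and 11.6 with either replicate. On chromosome 17 that difference, 8.10, was 4.33 without replicate 2, 8.74 without replicate 1, and 4.97 with either replicate. Covered windows of 50 kb numbered 311 and 478 on chromosomes 16 and 17, and those of 200 kb 64 and 107. These counts move because the number of windows changes with their size. Covered windows of 100 kb on chromosome 17 above 0.5 numbered 153. Covered promoters with under 15 CG dinucleotides exceeded the rest by 29.8 points, 32.5 to 32.8 in single replicates, 23.5 at a −log10 p of 5, 20.0 above 0.5, 35.5 with no p and 35.5 with either replicate. Of the 220 listed genes measured, 101 were covered over at least 50%, and 83 to 117 under the alternatives. Over all 1990 measured genes of both chromosomes the share covered was 19.9%. Because the lists were chosen with earlier results known and hold tandem clusters whose members share segments, nothing is read from the difference. Of 224 counts of covered genes in single lists, 201 stayed within 1.5 times and 23 did not. Depth is unknown from these files, so a value's counting error cannot be given.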
